A study of Mus musculus with 2 samples.

Results

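The genes described here are 40 members of the NF-kappa-B pathway: the subunits of the transcription factor, the proteins that restrain it, and chemokine, cytokine, adhesion and effector genes commonly listed among its targets. They were taken as every probe, control spots aside, whose gene name on the array equals a member's symbol. All 40 were found, on 56 of 41174 probes and 164 of 43379 spots, and 34 had a probe bright enough to test among 18069 genes tested. The knockdown was made in C2C12, an established myoblast line from leg muscle of C3H mice, in cells that stably expressed a short hairpin RNA (shRNA) against Mybbp1a. They were set against C2C12 cells with a control shRNA. Both kinds of cells were mixtures of stable clones held subconfluent in serum-rich growth medium, and neither is described as treated with a cytokine. The vector and the hairpin sequences are not given in the sources used here.

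Each of 2 arrays compared knockdown RNA, labelled with Cy5, with control RNA, labelled with Cy3. There was no dye swap, so a dye bias that remains after normalization and an effect of the knockdown cannot be told apart. The labels call the arrays biological replicates without saying whether they came from separate cultures, so the p-values cover the spread between these samples alone, and that spread may be technical. Each array was on a slide of its own with its own scan, and slide and replicate therefore cannot be told apart.

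NF-kappa-B is a family of dimeric transcription factors built from the proteins encoded by Rela, Relb, Rel, Nfkb1 and Nfkb2. In resting cells I-kappa-B proteins hold the dimers in the cytoplasm. Signals from receptors of tumour necrosis factor, interleukin 1 and Toll-like ligands lead to degradation of I-kappa-B, and the freed dimers enter the nucleus, bind kappa-B sites and switch on chemokine and cytokine genes together with their own inhibitors, among them Nfkbia and Tnfaip3. In myoblasts the pathway is known for maintaining proliferation and opposing differentiation. Mybbp1a, a mainly nucleolar protein, is a reported corepressor of RelA, which is why these genes were gathered. Members and other lists were chosen with earlier results of these data known, so their shares beside those of all genes only describe.

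The values are log2 ratios of knockdown over control, so 1 means doubled, and normalized log2 intensities of each channel, called levels here. A level depends on the probe as well as on the RNA, so levels are compared for 1 probe at a time. Channels are paired within an array, so overlap of levels across arrays only describes, and its share over all genes was not counted. In bulk cultures a change in RNA per cell and a change in the share of cells that make it cannot be told apart. Mybbp1a itself had a level of 11.04 and 10.79 in knockdown cells on arrays 1 and 2, against 12.68 and 12.70 in control cells. Both knockdown levels lay below both control levels, and the mean log2 ratio was -1.78 ± 0.19 (SD, n = 2), 3.42-fold lower. The limma adjusted p was 0.178, which missed the threshold of 0.05. The 8 myoblast markers, which include Myod1, Myf5 and Des, were well above background in both channels on both arrays.

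Promoters of 5 members are shown because they span the cases met below: Il6, Cxcl1 and Csf1, on which the arrays did not share a ratio, Nfkbia, the classical inhibitor induced by the factor itself, and Cxcl12, the member with the highest mean ratio. Each sequence is the 250 bases before the gene's start in RefSeq on GRCm38.p6, 5′ to 3′ on the gene's strand. Capitals mark matches to the kappa-B consensus, searched on both strands.
Il6: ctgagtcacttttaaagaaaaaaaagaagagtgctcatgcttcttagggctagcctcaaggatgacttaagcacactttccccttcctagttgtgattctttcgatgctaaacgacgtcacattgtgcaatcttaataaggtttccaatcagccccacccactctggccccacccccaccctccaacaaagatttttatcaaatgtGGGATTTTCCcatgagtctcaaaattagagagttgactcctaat
Cxcl1: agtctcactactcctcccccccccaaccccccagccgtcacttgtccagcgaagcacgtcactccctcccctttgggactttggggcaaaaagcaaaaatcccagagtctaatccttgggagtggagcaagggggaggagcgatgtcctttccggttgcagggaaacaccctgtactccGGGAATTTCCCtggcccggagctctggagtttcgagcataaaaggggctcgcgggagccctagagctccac
Nfkbia: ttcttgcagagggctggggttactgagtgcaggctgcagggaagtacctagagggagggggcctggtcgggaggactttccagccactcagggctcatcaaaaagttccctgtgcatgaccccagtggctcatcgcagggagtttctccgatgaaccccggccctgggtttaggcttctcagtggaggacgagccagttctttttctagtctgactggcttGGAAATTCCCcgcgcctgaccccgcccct
Csf1: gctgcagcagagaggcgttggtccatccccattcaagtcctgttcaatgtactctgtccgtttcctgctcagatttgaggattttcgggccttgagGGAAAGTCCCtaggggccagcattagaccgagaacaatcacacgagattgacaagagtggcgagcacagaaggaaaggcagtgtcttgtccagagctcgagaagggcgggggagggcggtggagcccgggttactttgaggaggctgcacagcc
Cxcl12: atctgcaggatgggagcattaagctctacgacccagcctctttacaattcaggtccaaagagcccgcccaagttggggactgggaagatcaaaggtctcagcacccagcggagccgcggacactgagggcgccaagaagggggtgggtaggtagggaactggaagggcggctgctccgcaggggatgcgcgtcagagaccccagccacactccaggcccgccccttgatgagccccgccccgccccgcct
These lie at chr5:30012864-30013113 (plus strand) for Il6, chr5:90890995-90891244 (plus strand) for Cxcl1, chr12:55492648-55492897 (minus strand) for Nfkbia, chr3:107760470-107760719 (minus strand) for Csf1 and chr6:117168285-117168534 (plus strand) for Cxcl12. The Il6 match runs from base -44 to -35 before the start. The Cxcl1 run, from -71 to -61, holds 2 overlapping matches, 1 on each strand. The matches of Nfkbia, from -29 to -20, and of Csf1, from -154 to -145, are on the strand opposite to the gene. Cxcl12 has no match in this window.

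No member passed the test, and no gene on the array did: at a limma adjusted p of 0.05, 0 of 34 members and 0 of 18069 genes were called in either direction. Chemokines held the highest ratios, with Cxcl12 and Cxcl5 more than 2-fold higher in knockdown cells on both arrays. The adaptor gene Traf1 was the member with the lowest mean ratio, while the brightest probes of the tested NF-kappa-B subunits had log2 ratios between -0.21 and 0.33. Il6 and the acute phase gene Saa3 had ratios that differed between the arrays by more than 1 log2 unit.

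At an unadjusted limma p under 0.05, 8 members were higher in knockdown cells (23.5% of those tested, against 13.4% of all genes) and 2 were lower (5.88%, against 7.45%). In sign, 13 members were higher on both arrays (38.2%, against 40.6% of all genes), 9 were lower on both (26.5%, against 29.4%) and 12 had opposite signs (35.3%, against 30%). These sign shares lie near those of all genes. The 8 were Cxcl12, Cxcl5, Cx3cl1, Ccl5, Nfkbiz, Tnip1, Bcl2l1 and Tnf, and the 2 were Traf1 and Ier3. These counts depended on the processing. With Feature Extraction's processed signals, 4 were higher (11.8%, against 9.88% of all genes) and 1 was lower (2.94%, against 7.6%). The deposited value table, with 32 members tested, gave 4 higher (12.5%, against 9.75%) and 1 lower (3.12%, against 7.42%). Under median centring 18 were higher (52.9%, against 36.6%) and 1 was lower (2.94%, against 2.22%). At least 1.5-fold higher on both arrays were 2 members (5.88%, against 2.61%), and the same 2, Cxcl12 and Cxcl5, were at least 2-fold higher on both (5.88%, against 0.631%). No member was 1.5-fold lower on both arrays, against 0.338% of all genes, or 2-fold lower, against 0.0553%. With processed signals 1 member, Traf1, was at least 1.5-fold lower on both arrays, against 136 of 18069 genes. Traf1 was the 1 such member in the deposited table too. The median log2 ratio of the members was 0.15, against 0.03 for all genes. By array it was 0.21 and 0.08 for the members, against 0.03 and 0.03 for all genes. When log2 ratios were centred on each array's median in place of loess, the median of all genes moved to 0.21, and 3104 genes passed the test, 58 of them lower. The sign of 11 members changed with this common shift, and 7 of the 11 stayed below the median of all genes. Under that scaling 10 of 34 members passed, against 3104 of 18069 genes, in a test against 0 and not against the shifted median. All 10 were higher: Nfkbie, Nfkbiz, Tnip1, Birc2, Ccl2, Ccl5, Cxcl5, Cxcl12, Cx3cl1 and Bcl2l1. For members that were lower on both arrays and changed sign there, the value less that median is given beside the gene.

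**Figure D1:**
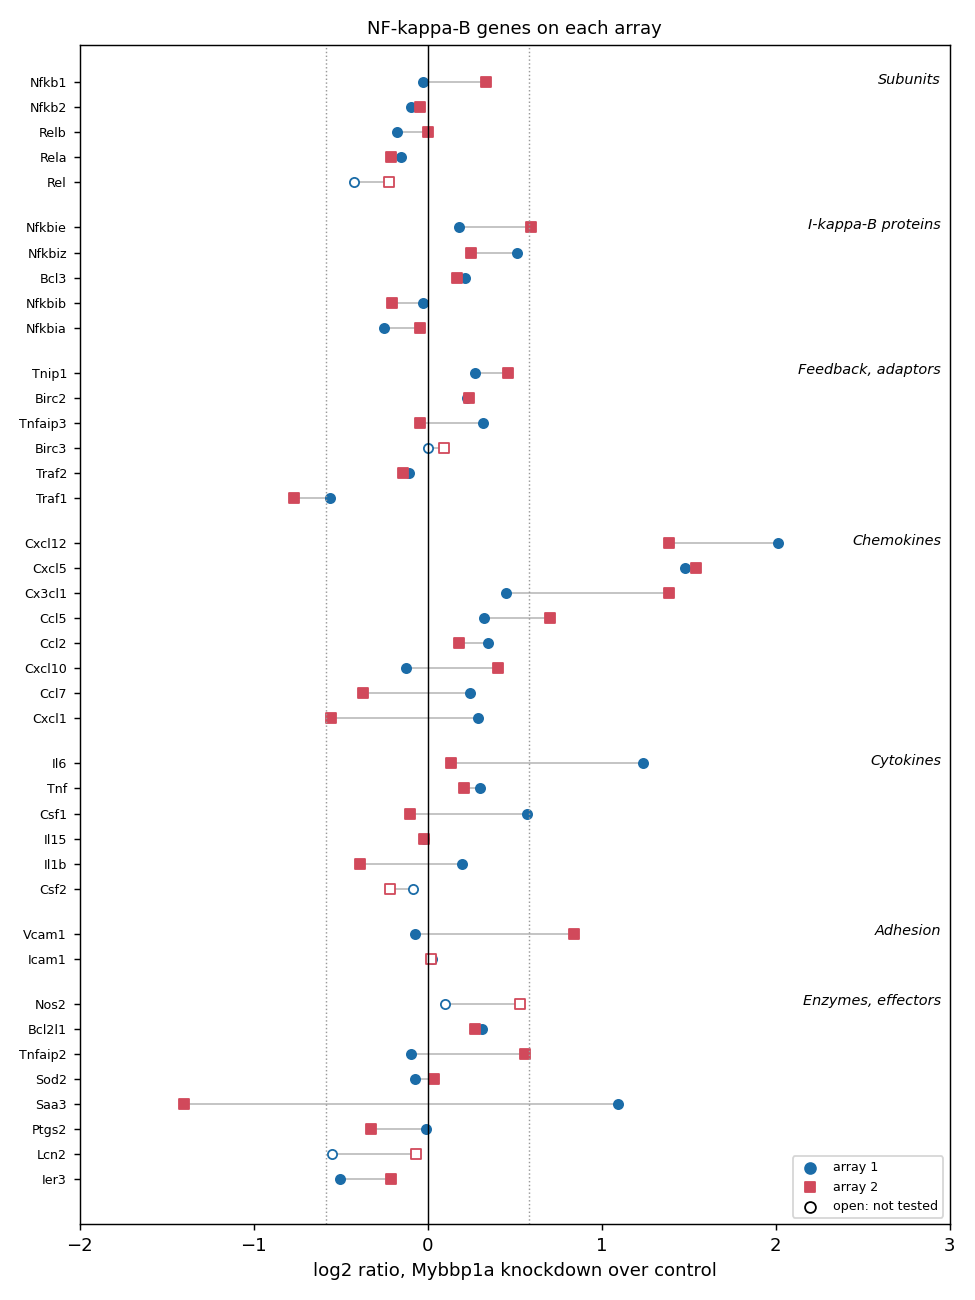
Log2 ratio of knockdown over control (x axis) of the 40 members (rows, grouped by role), with a point for each array and a line joining them; open symbols mark members that were not tested, and dotted lines mark 1.5-fold. Cxcl12 and Cxcl5 lie above 1 on both arrays, while the points of Saa3 lie on opposite sides of 0, at 1.10 on array 1 and -1.40 on array 2.

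The subunits had small ratios of either sign. Rela, which encodes p65, the main activating subunit and the one that Mybbp1a is reported to bind, had a level of 12.58 and 12.87 in knockdown cells, against 12.73 and 13.08 in control cells. The groups overlapped, although knockdown was the lower channel on each array, with a mean log2 ratio of -0.18 ± 0.04 (SD, n = 2, limma adjusted p = 0.316) that under median centring was 0.11, or -0.10 less the median of all genes. A second Rela probe, spotted 10 times per array, gave -0.15 and -0.25. Nfkb1 encodes p105, the precursor of the p50 subunit, and its brightest probe had a level of 13.00 and 12.73 in knockdown cells, against 13.03 and 12.39 in control cells. Here too the groups overlapped, and the log2 ratios of -0.03 and 0.33 had opposite signs (mean 0.15 ± 0.25, SD, n = 2, adjusted p = 0.535 in limma). The 10 spots of this probe did not overlap between the arrays, from -0.10 to 0.08 on array 1 and, over 9 spots kept, from 0.24 to 0.40 on array 2. The other 3 Nfkb1 probes gave mean log2 ratios of -0.07, -0.02 and 0.00.

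Relb and Nfkb2 encode the pair of the non-canonical pathway, RelB and p100, the precursor of p52. Relb had a level of 11.49 and 11.60 in knockdown cells, against 11.67 and 11.59 in control cells, and Nfkb2 had 11.30 and 11.36 in knockdown cells, against 11.40 and 11.41 in control cells. The Relb levels overlapped and the Nfkb2 levels did not, but the gaps were small: the mean log2 ratios were -0.09 ± 0.13 for Relb and -0.07 ± 0.04 for Nfkb2 (SD, n = 2 each), and under median centring they were 0.18 and 0.20, or -0.03 and -0.02 less the median of all genes. Rel, the c-Rel gene most at home in lymphoid cells, was not well above background on array 2 in either channel and was not tested. Its log2 ratios were -0.43 on array 1 and -0.22 on array 2.

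The I-kappa-B genes had no common direction. Nfkbia, which encodes the classical I-kappa-B alpha, had a level of 14.76 and 14.75 in knockdown cells, against 15.01 and 14.80 in control cells. Nfkbib, its slower relative I-kappa-B beta, had 11.74 and 11.66 in knockdown cells, against 11.76 and 11.87 in control cells. For both genes the knockdown levels lay below the control levels by little, with mean log2 ratios of -0.15 ± 0.14 for Nfkbia and -0.12 ± 0.13 for Nfkbib (SD, n = 2 each, limma adjusted p = 0.452 and 0.533), and under median centring 0.26 and 0.16, or 0.05 and -0.06 less the median of all genes.

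Nfkbie, which encodes I-kappa-B epsilon, had a level of 11.21 and 10.88 in knockdown cells, against 11.03 and 10.29 in control cells. Nfkbiz encodes I-kappa-B zeta, a nuclear member that works with p50 as a coactivator of secondary response genes such as Il6, and had 12.51 and 12.45 in knockdown cells, against 12.003 and 12.21 in control cells. Bcl3, another nuclear member that binds p50 and p52 dimers, had 8.59 and 7.95 in knockdown cells, against 8.38 and 7.78 in control cells. Knockdown was the higher channel on both arrays for these genes, though only the Nfkbiz groups did not overlap. The mean log2 ratios were 0.39 ± 0.29 for Nfkbie, 0.38 ± 0.19 for Nfkbiz and 0.19 ± 0.03 for Bcl3 (SD, n = 2 each), and the limma adjusted p-values of 0.253, 0.210 and 0.296 missed the threshold. Across the 5 genes the median log2 ratio was 0.19, against 0.03 for all genes. Of the 5, 3 were higher on both arrays (60%, against 40.6% of all genes) and 2 lower on both (40%, against 29.4%).

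Among the ubiquitin-editing feedback genes and receptor adaptors, Traf1 and Tnip1 had ratios of opposite sign. Traf1, an adaptor at tumour necrosis factor receptors that is itself a target of the factor, had a level of 11.06 and 11.30 in knockdown cells, against 11.62 and 12.07 in control cells. Both knockdown levels lay below both control levels, with log2 ratios of -0.56 and -0.77 and a mean of -0.66 ± 0.15 (SD, n = 2), 1.58-fold lower, at a limma adjusted p of 0.179. Tnip1 encodes a ubiquitin-binding partner of A20 that restrains signalling, and had a level of 12.83 and 13.20 in knockdown cells, against 12.56 and 12.74 in control cells. Both knockdown levels lay above both control levels, and the mean log2 ratio was 0.36 ± 0.13 (SD, n = 2, limma adjusted p = 0.202).

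Tnfaip3, the gene of the A20 enzyme itself, did not share a sign between the arrays, with log2 ratios of 0.32 and -0.04. Birc2, which encodes the ubiquitin ligase cIAP1, had 0.22 and 0.24. Traf2, the adaptor that recruits cIAP proteins to the receptor, had -0.11 and -0.14, with a mean under median centring of 0.16, or -0.05 less the median of all genes. Birc3, the gene of cIAP2, was not well above background on array 1 in either channel, and neither of its probes was tested.

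The chemokines carried the highest ratios of the set. Of the 8 genes, all tested, 5 were higher in knockdown cells on both arrays (62.5%, against 40.6% of all genes), 3 had opposite signs (37.5%, against 30%) and none was lower on both (against 29.4%). Their median log2 ratio was 0.39, against 0.03 for all genes. Cxcl12 encodes SDF-1, the ligand of Cxcr4 and a homeostatic chemokine of stromal cells that draws muscle progenitors. Its level was 10.60 and 11.86 in knockdown cells, against 8.59 and 10.47 in control cells. Both knockdown levels lay above both control levels, the array 1 knockdown level only just above the array 2 control level, and both channels were brighter on array 2. The log2 ratios were 2.01 and 1.39, with a mean of 1.70 ± 0.44 (SD, n = 2), 3.25-fold higher, and a limma adjusted p of 0.179. The brighter probe lies at positions 117146828 to 117146887 of chromosome 6 on build mm8, and a second probe at positions 117140075 to 117140134 gave 1.87 and 1.28.

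Cxcl5 encodes LIX, a chemokine that attracts neutrophils through Cxcr2. Its level was 15.25 and 14.79 in knockdown cells, against 13.77 and 13.24 in control cells. The groups lay far apart, and the arrays differed little in the ratio, with log2 values of 1.48 and 1.54. The mean of 1.51 ± 0.05 (SD, n = 2) is 2.85-fold higher, at a limma adjusted p of 0.178. Its only probe lies at positions 91836379 to 91836438 of chromosome 5 on build mm8. Cxcl1, another Cxcr2 ligand, whose probe is on the same chromosome at positions 91968019 to 91968078, had log2 ratios of opposite sign, 0.29 and -0.56.

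Cx3cl1 encodes fractalkine, which is made on the cell surface and shed. Its level was 13.18 and 12.84 in knockdown cells, against 12.73 and 11.46 in control cells. The groups did not overlap, but the log2 ratio of 1.39 on array 2 was far above that of 0.45 on array 1 (mean 0.92 ± 0.66, SD, n = 2, limma adjusted p = 0.213). A second Cx3cl1 probe was too dim to test and gave -0.04 and 0.18. Ccl5, the T cell attractant RANTES, had 0.32 and 0.70 on its brightest probe and 0.45 and 0.62 on the other. Ccl2, the monocyte attractant MCP-1, had 0.35 and 0.18. Ccl7, a neighbour and relative of Ccl2, had 0.24 and -0.37 on its brightest probe and 0.32 and -0.35 on the other, so both probes kept the opposite signs. Cxcl10, an interferon-responsive chemokine, had -0.12 and 0.41.

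**Figure D2:**
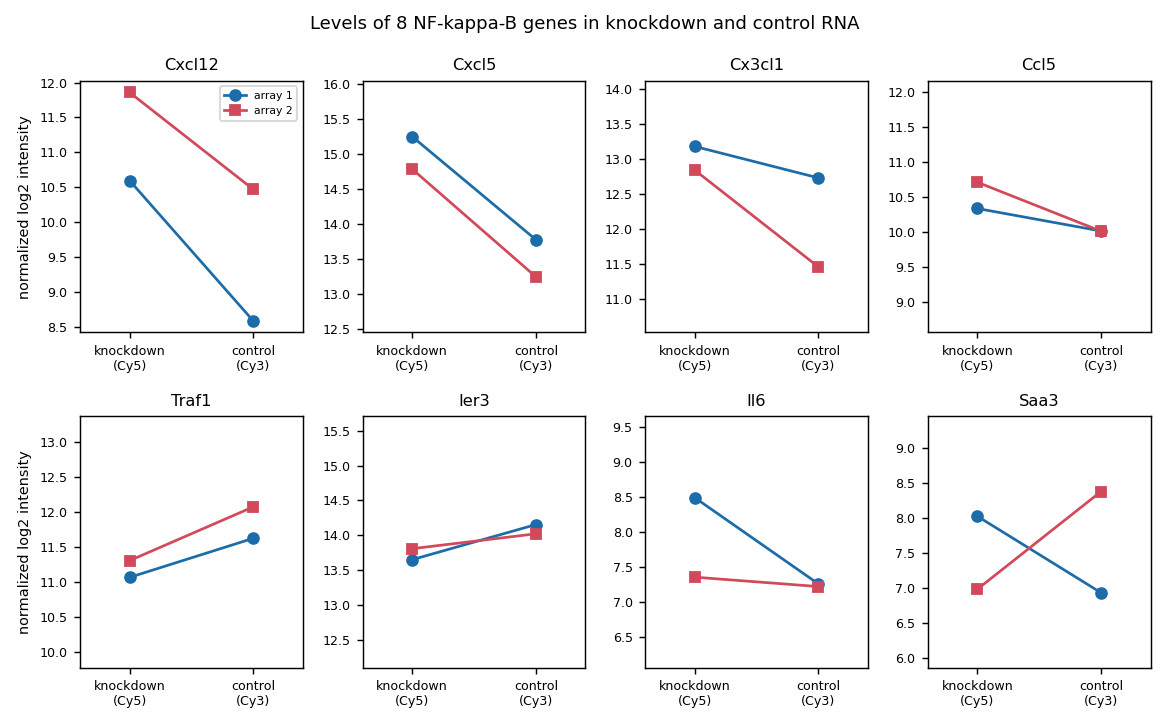
Normalized log2 intensity (y axis) of 8 genes in the knockdown channel (left of each pair) and the control channel (right), with a line joining the channels of the same array. The control points of Cxcl12 and Cxcl5 lie below the knockdown points on both arrays, those of Traf1 and Ier3 lie above them, and the lines of Saa3 cross.

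Markers of fibroblasts were higher in knockdown cells in the same comparison, and their part in the chemokine values was not tested. Of 8 such markers, 7 were well above background on both arrays in either channel, and all 7 that could be tested were higher on both arrays (100%, against 40.6% of all genes), 4 of them at least 1.5-fold (57.1%, against 2.61%). Their summed intensity was 311311 and 369470 in knockdown cells, against 196657 and 146376 in control cells. Col3a1, with levels of 17.16 and 17.44 in knockdown cells, and Col1a2, with 16.85 and 17.02, made up most of that sum. Thy1 was the marker not tested. Col1a1 had log2 ratios of 1.71 and 4.60, and Pdgfra had 0.98 and 1.77, while Lum, the tested marker with the lowest mean, had 0.10 and 0.29.

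Leukocyte markers were partly detected. Of 10, 5 in knockdown cells and 4 in control cells were well above background on both arrays, and their sum was 5630 and 5263 in knockdown cells, against 5178 and 5415 in control cells. The defining markers Ptprc, Adgre1 and Itgam were too dim to test, as were Cd52 and Laptm5. Of the 5 tested, Tyrobp had a level of 10.66 and 10.30 in knockdown cells, against 9.998 and 9.59 in control cells, and log2 ratios of 0.66 and 0.71. Tyrobp was the one at least 1.5-fold higher on both arrays (20%, against 2.61% of all genes). Csf1r had 0.27 and 0.29, and Cd14 had -0.11 and -0.27. Of the 5, 2 were higher on both arrays (40%, against 40.6%) and 1 was lower on both (20%, against 29.4%). Cd68 and Lyz2 had opposite signs (40%, against 30%). Of 7 endothelial markers, 3 in knockdown cells and 2 in control cells were well above background on both arrays, with sums of 1076 and 1088 in knockdown cells, against 877 and 981 in control cells. All 3 tested were higher on both arrays (100%, against 40.6% of all genes). Cdh5 had log2 ratios of 1.03 and 0.68, but its control RNA was not well above background on array 1. Pecam1, Kdr, Tie1 and Emcn were not tested. The myoblast markers summed to 140662 and 122580 in knockdown cells, against 145594 and 124760 in control cells. Chrna1, with levels of 16.36 and 16.25 in knockdown cells and 16.42 and 16.48 in control cells, made up most of that sum and was the only myoblast marker lower on both arrays. Higher on both were 5 of the 8 (62.5%, against 40.6% of all genes), among them Myog with 0.79 and 0.51 and Myf5 with 0.21 and 0.59. The part of these markers in the values of the NF-kappa-B genes was not tested.

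The cytokines gave no common direction, and the arrays differed most on Il6. Il6 encodes interleukin 6, which myoblasts themselves secrete. Its level was 8.49 and 7.35 in knockdown cells, against 7.26 and 7.22 in control cells. Only the knockdown level on array 1 stood clear of the rest. Its log2 ratios, 1.24 on array 1 against 0.13 on array 2, averaged 0.69 ± 0.78 (SD, n = 2, limma adjusted p = 0.317). The mean was 1.19 with processed signals (2.20 on array 1 and 0.18 on array 2) and 1.30 in the deposited table. The size of the array 1 ratio thus depended on the processing. The probe was dim, though well above background in both channels on both arrays. The Il6 probe was spotted 10 times on each array, and the spots ranged in log2 ratio between 1.10 and 1.33 on array 1 and between -0.01 and 0.28 on array 2. The gap between the arrays was therefore far wider than the spread of spots within either.

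Csf1, the macrophage colony-stimulating factor, also differed between the arrays on its own 10-spot probe, with a log2 ratio of 0.57 on array 1 and -0.10 on array 2. Its spots ranged between 0.52 and 0.66 on array 1 and, over 8 spots kept, between -0.13 and -0.09 on array 2, again without overlap. Tnf, the prototype inducer of the pathway, had a level of 8.02 and 7.69 in knockdown cells, against 7.72 and 7.48 in control cells. The Tnf groups overlapped, and the mean log2 ratio was 0.26 ± 0.06 (SD, n = 2, limma adjusted p = 0.234). Of the 10 spots of the Tnf probe, 6 were kept on array 2. Il1b, another inducer, had 0.20 and -0.39, with knockdown RNA well above background on array 1 only and control RNA on array 2 only. Il15, a cytokine abundant in muscle, had -0.02 on both arrays, with a mean under median centring of 0.11, or -0.10 less the median of all genes. Csf2, which encodes GM-CSF, was not well above background in either channel on either array.

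**Figure D3:**
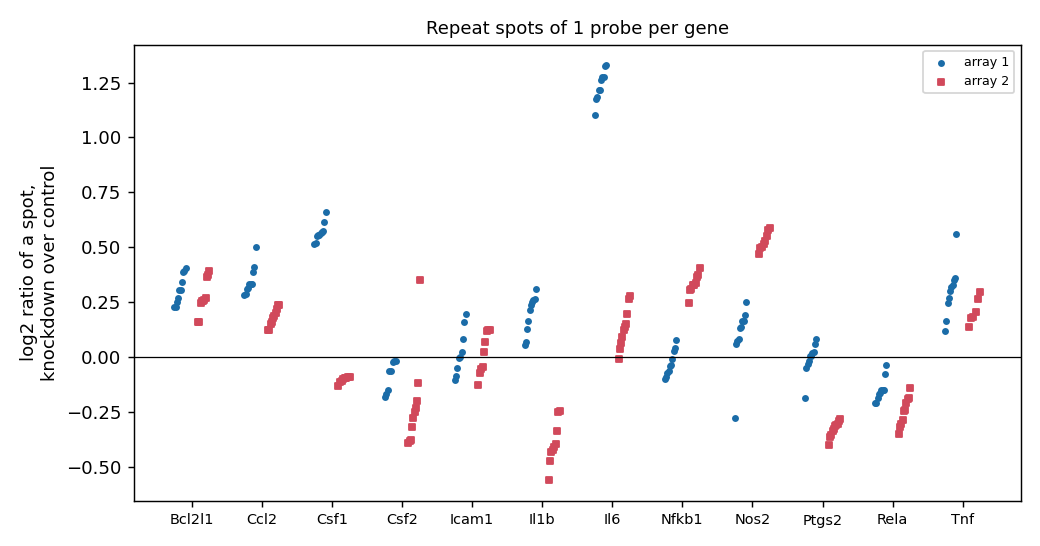
Log2 ratio of knockdown over control (y axis) of single spots of the members' probes that were printed 10 times per array, by member and array. The Il6 and Csf1 spots of array 1 lie above all of those of array 2, while the spots of Csf2, which was not tested, run from -0.39 to 0.35 on array 2.

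Of the adhesion receptors, Vcam1, a ligand of integrin alpha-4 beta-1, had log2 ratios of -0.08 and 0.84 on its brightest probe and 0.10 and 0.58 on another. Both probes gave the higher value on array 2, but the mean of 0.38 ± 0.65 (SD, n = 2) was smaller than its SD. Icam1, the endothelial and leukocyte ligand of beta-2 integrins, was too dim to test on both of its probes.

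Effector genes lay on both sides of 0. Ier3, an immediate early gene linked to survival, had a level of 13.65 and 13.81 in knockdown cells, against 14.15 and 14.02 in control cells, without overlap (mean log2 ratio -0.36 ± 0.20, SD, n = 2, limma adjusted p = 0.225). Bcl2l1, which encodes the survival protein Bcl-xL, had 0.31 and 0.27 on its brightest probe, but the other 2 probes had means of -0.05 and -0.08. The probes of Bcl2l1 thus disagreed in sign. Sod2, the mitochondrial superoxide dismutase, had -0.07 and 0.03. Ptgs2, the inducible cyclooxygenase, had -0.01 and -0.33, with a mean under median centring of 0.092, or -0.12 less the median of all genes. Tnfaip2, a gene first found as induced by tumour necrosis factor, had -0.09 and 0.56.

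Saa3, an acute phase protein made by stimulated mouse stromal cells and macrophages, had a level of 8.03 and 6.98 in knockdown cells, against 6.93 and 8.38 in control cells. The channels changed places between the arrays: knockdown was higher on array 1 and control on array 2. Control RNA was not well above background on array 1. The log2 ratios of 1.10 and -1.40 have a mean of -0.15 ± 1.76 (SD, n = 2), which turned to 0.28 in Feature Extraction's processed signals and in the deposited value table. Saa3 and Il6 were the 2 members with arrays at least 1 log2 unit apart (5.88%, against 2.39% of all genes). Nos2, the inducible nitric oxide synthase, was well above background in the knockdown channel of array 2 only and was not tested, with log2 ratios of 0.10 and 0.53. Lcn2, an iron-sequestering acute phase protein, was not well above background in either channel on either array.

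**Figure D4:**
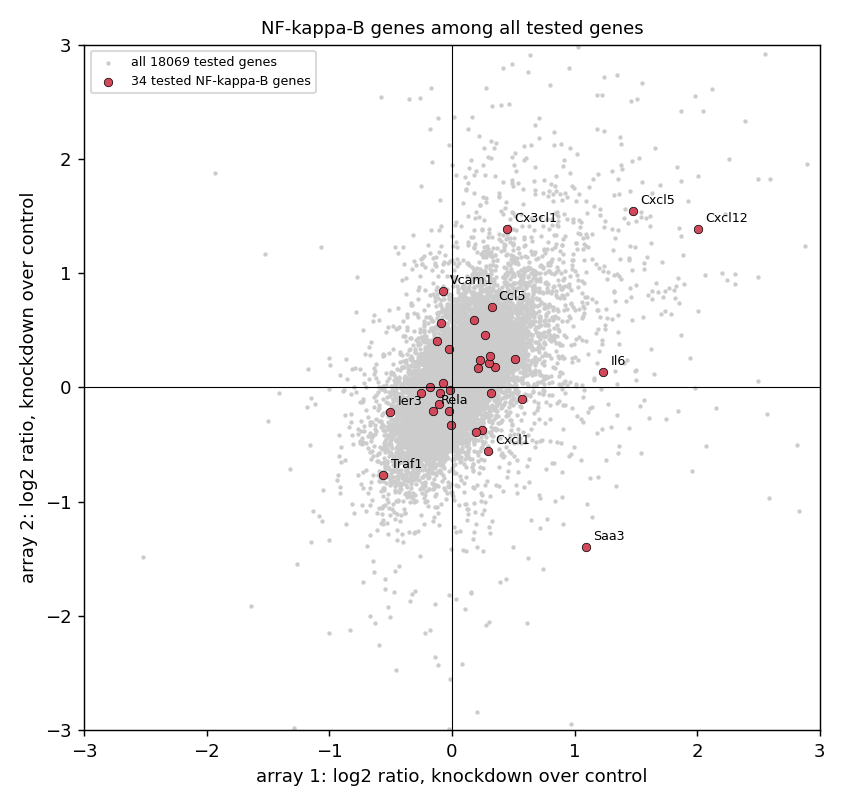
Log2 ratio of knockdown over control on array 1 (x axis) against array 2 (y axis) for the tested members, with all tested genes as the background cloud; 20 genes lie beyond the limits of ±3. Cxcl12 and Cxcl5 stand apart in the upper right, Saa3 lies at lower right and Il6 near the x axis.

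Promoter sequence was set beside the ratios as a description. Of the 40 members, 30 had an entry in the RefSeq promoter table, and Nfkbiz, Relb, Nos2, Vcam1, Il15, Ccl2, Ccl5, Nfkb1, Cxcl5 and Ccl7 did not. The kappa-B consensus matched in the 250 bases before the start of 13 of the 30 (43.3%), against 4.46% of 27025 genes. The members were gathered as pathway genes and listed targets, so this difference cannot be separated from how they were chosen. The 12 tested members with a consensus match had a median log2 ratio of 0.14, by array 0.23 and 0.00. Of these 12, 4 were higher and 3 lower on both arrays, where the shares of all genes were 40.6% and 29.4%. The 13 tested members without a match in this window had a median of -0.10, by array 0.20 and -0.14, with 5 higher and 5 lower on both. Members on either side of this division include both signs: Tnip1 and Ier3 have a match, and Cxcl12 and Traf1 do not.

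Of 62 other genes of the pathway, 59 were tested, and none passed limma's adjusted p of 0.05. At an unadjusted p under 0.05, 8 were higher (13.6%, against 13.4% of all genes) and 3 lower (5.08%, against 7.45%). In sign, 26 were higher on both arrays (44.1%, against 40.6% of all genes), 16 were lower on both (27.1%, against 29.4%) and 17 had opposite signs (28.8%, against 30%), with a median log2 ratio of 0.06. Only Pdlim2, higher (1.69%, against 2.61% of all genes), and Ngfr, lower (1.69%, against 0.338%), were at least 1.5-fold apart in 1 direction on both arrays. With the mean over tested probes, 0 were that much higher (against 401 of 18069 genes) and 1 was that much lower (against 47). Pdlim2 encodes a nuclear ubiquitin ligase that ends RelA activity, and had 0.68 and 1.02 (mean 0.85 ± 0.24, SD, n = 2, limma adjusted p = 0.179), while a dimmer probe gave 0.47 and 0.73. Ngfr, the neurotrophin receptor p75, had -1.001 and -2.15 (mean -1.57 ± 0.81, SD, n = 2, limma adjusted p = 0.186). A dimmer Ngfr probe gave -0.21 and -0.19, and the mean over both probes was -0.89.

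Along the pathway, medians ran between 0.00 and 0.16: 0.12 for 13 receptors, 0.06 for 10 adaptors, 0.16 for 15 kinase and ubiquitin genes, 0.00 for 9 tested termination genes and 0.03 for 12 nuclear cofactors. Further examples were chosen after their values were seen. Among receptors, Il1r1, which binds interleukin 1, had 0.57 and 0.72, Tnfrsf1a, the main receptor of tumour necrosis factor, had 0.24 and 0.54, and Tnfrsf12a, the receptor of TWEAK, had -0.51 and -1.12. Map3k14, the kinase NIK that starts the non-canonical pathway, had 0.32 and 0.71. Rnf31, the catalytic part of the linear ubiquitin ligase, had 0.18 and 0.82. Nkrf, a nuclear repressor of NF-kappa-B targets, had -0.34 and -0.77. Tnip3 and Nfkbid were too dim to test, and N4bp1 was not matched by name.

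**Figure D5:**
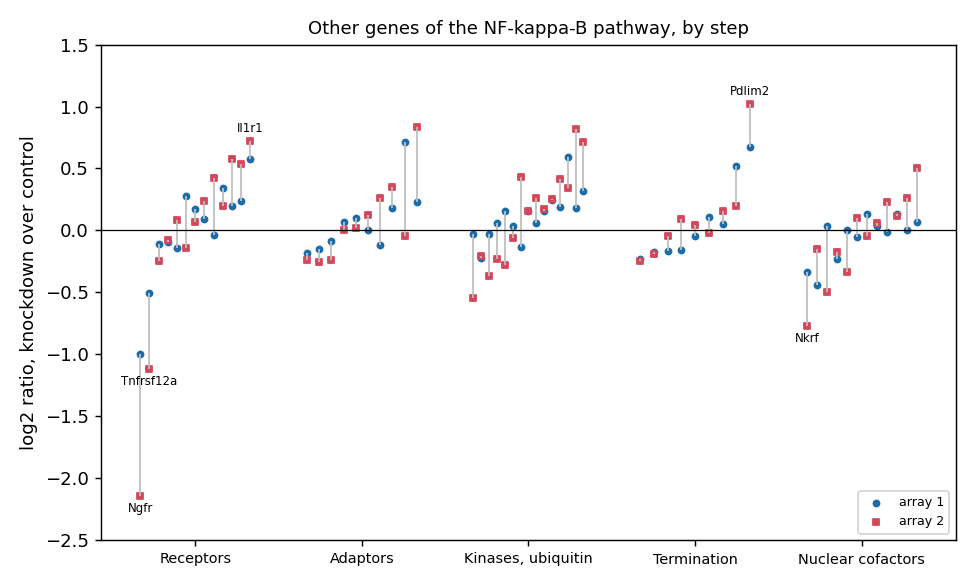
Log2 ratio of knockdown over control (y axis) of the 59 other tested pathway genes, grouped by step (x axis), with a point for each array and a line joining them. Most genes lie close to 0, with Pdlim2 reaching 1.02 and Ngfr -2.15 on array 2.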

How the data were processed

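Transcripts of Mybbp1a knockdown (Cy5) and control (Cy3) C2C12 cells were measured on 2 two-colour Agilent whole mouse genome arrays, whose probes are placed on build mm8. Per the submitters' processing notes, the scans went through Agilent Feature Extraction 9.5.3.1. The mean and local background intensity of each spot were deposited without subtraction, per the file headers. Per the file headers, the deposited files also hold processed intensity values (after background subtraction and dye normalization) and the log10 of Cy5 over Cy3. They hold a deposited p-value for it too, from a model of 1 array's error, which no result uses. The deposited value table of 40477 probes held log2 ratios equal to the deposited log10 ratio, put on the log2 scale, within 0.001 for 99.4% of probes on each array, with a median of 0; why some probes are blank is unknown. The table served as an alternative.

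Intensities were corrected with normexp (offset 50) and log2 ratios normalized by loess (span 0.3) in limma 3.58.1 under R 4.3.3. Levels were scaled between arrays with Aquantile. The 1639 control spots had weight 0 and were left out, as were 154 and 237 outlier spots on arrays 1 and 2. Spots of 1 probe were averaged. Of 41174 probes, 23374 were named by accession in RefSeq (GRCm38.p6), 6735 by symbol and 2907 by synonym, and 8158 kept the file's name; member probes went by the file's name. Probes were tested that, on each array, stood well above background in 1 channel or both, and a gene was read from its brightest tested probe. Depth on arrays is set by signal: spots well above background made up 65.6% (knockdown) and 64.9% (control) on array 1, and 79.7% and 72.9% on array 2. The number of arrays, 2, limits the precision.

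Ratios were tested against 0 with lmFit and eBayes, two-sided, with Benjamini-Hochberg adjustment over all genes and calls at 0.05. It had 1 residual degree of freedom. The smallest exact sign-flip p is 0.5. On data simulated with 18069 genes, the fit called 9.40% of changes of 1 log2 unit, 89.0% of 2 and 98.1% of 4, and 0.0501% of unchanged genes. These shares hold for the planted changes, with variances drawn from the fitted prior, and not for the arrays' own genes. On the arrays no gene passed, and Mybbp1a, at a mean log2 ratio of -1.78, had a limma adjusted p of 0.178. Motifs were searched in Python 3.11.15. Values on both arrays were given for subunits, I-kappa-B genes and members or pathway genes at least 1.5-fold apart in 1 direction on both arrays, and for examples of each role. Members and lists were chosen with earlier results of these data known. Alternatives were processed signals, median centring, other filters, the mean over probes, the value table and each array alone.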

Additional observations from a re-analysis of the deposited data

How the results depend on the processing

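Each test is paired by array, since it uses the ratio within an array, so no separate block by replicate could be fitted. With processed signals, either other filter on dim probes, the mean over probes or the deposited table, 0 members, 0 genes and 0 other pathway genes passed. Under these 5 alternatives every member tested kept its direction except Saa3, at 0.28 with processed signals and in the deposited table. Median centring moved the median of all genes to 0.21, and the cause was not tested. It called 10 of 34 members (0 lower), 3104 of 18069 genes (58 of them lower) and 11 of 59 other pathway genes (1 of them lower). Under it 27 members were higher (79.4%, against 65.5% of all genes) and 2 lower (5.88%, against 12.1%) on both arrays, and the members had a median of 0.38. With that common shift 11 members turned positive, of which 7 stayed below the median of all genes: Rela 0.11, Relb 0.18, Nfkb2 0.20, Nfkbia 0.26, Nfkbib 0.16, Traf2 0.16, Ccl7 0.31, Cxcl1 0.27, Il15 0.11, Ptgs2 0.092 and Sod2 0.43. Less the median of all genes, Rela stood at -0.10, Traf1 at -0.61, Cxcl12 at 1.72 and Cxcl5 at 1.67. On either array alone 19 members were higher (55.9%, against 55.6% and 55.5% of all genes) and 15 lower, with a median between 0.08 and 0.21, and no test was possible. Of 40 members, 6 were too dim to test, which limits what can be said of Rel, Birc3, Csf2, Icam1, Nos2 and Lcn2.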
